A study of Mus musculus with 6 samples.

Results

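The sodium pump genes described here are the beta subunit genes Atp1b1 and Atp1b3 and the regulator genes Fxyd1, Fxyd2, Fxyd3, Fxyd4 and Fxyd5, 7 of the 24840 mouse genes to which the deposited counts could be assigned. A deposited UCSC transcript identifier belonged to a member when at least 50% of its exonic bases lay in exons of that gene on the same strand, and the 7 genes held 19 of the 59121 identifiers. Collecting duct cells were isolated from the kidneys of male mice of the inbred strain C57BL/6J, and their RNA was read in 3 libraries per diet. The mice had eaten, for 5 days, either a low-NaCl diet with 0.01 to 0.02% sodium or a high-NaCl diet, whose sodium content was 2.4%. The series' title names the response to aldosterone, the adrenal steroid that is released when sodium is scarce, and no library came from animals on an ordinary diet. How the cells were isolated and whether each library is 1 animal are not given in the labels, so the spread behind every p-value is that of the libraries and may be technical.

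The sodium pump, Na,K-ATPase, sits in the basolateral membrane of tubule cells and moves sodium out and potassium in at the cost of ATP. Its alpha subunit does the transport. The beta subunit, a glycoprotein, is needed for folding and for delivery to the membrane, and a small single-span FXYD protein can bind the pump and tune its affinity for sodium and potassium. In the collecting duct this pump drives the uptake of sodium that enters from urine through the epithelial sodium channel. FXYD2, the gamma subunit, is a known kidney regulator with forms that differ at their amino end. FXYD4, also called CHIF, is a known regulator of the collecting duct pump.

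A read that overlapped exons of more than 1 identifier was not counted, so each gene was measured only over bases that belong to a single identifier, called countable here. Atp1b1 was countable over 98.8% of its 2422 exonic bases and Atp1b3 over 78.2% of its 1849, in both cases with the whole coding sequence. Fxyd5 was countable over 71.5% and Fxyd2 over 53.9%. Fxyd3 was countable over 24.4%, Fxyd1 over 20% and Fxyd4 over 0.404%. The 2 beta subunit counts are therefore counts of the gene, and the FXYD counts are counts of particular exons.

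**Figure D1:**
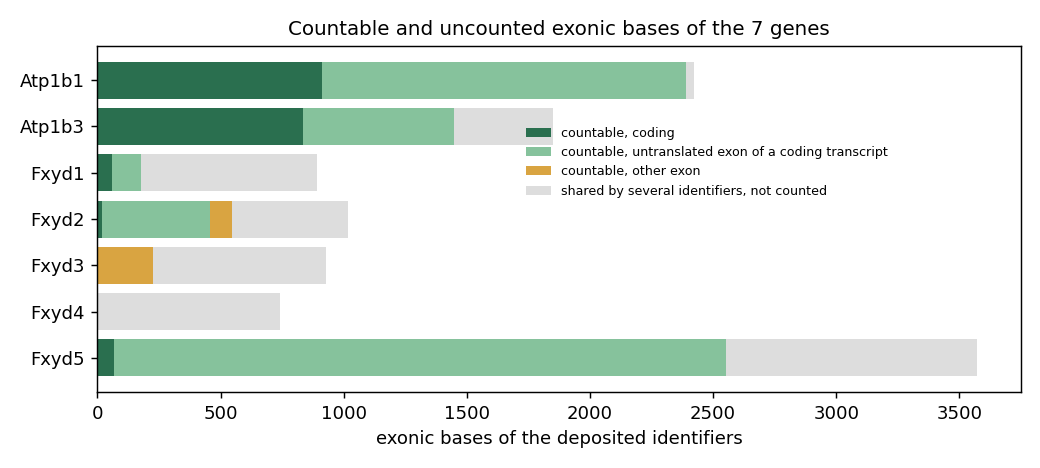
Horizontal bars give the exonic bases of the deposited identifiers of each gene, divided into countable coding bases, countable bases in untranslated exons of coding transcripts, countable bases in other exons, and bases shared by several identifiers, which were not counted. Atp1b1 and Atp1b3 were counted over all of their 912 and 834 coding bases, Fxyd2 over 19, and Fxyd4 over 3 bases in all.

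The sequences below show where the FXYD counts come from. Fxyd2 lies on chromosome 9 (mm10 chr9:45399669-45410278, plus strand) and has 3 deposited identifiers, each with its own first exon joined to the same 5 later exons. All 548 countable bases lie in those 3 first exons, which are called upstream (chr9:45399709-45400003, 295 bases), middle (chr9:45403138-45403300, 163 bases) and downstream (chr9:45406077-45406166, 90 bases). Each line gives the last 15 bases of a first exon in capitals and the first 15 bases of the shared exon in lower case, 5′ to 3′, from the GENCODE M21 transcripts.
upstream junction: GGAAGACTGGTAGTGgtggcagtgccaagg
middle junction: ACAGGTGGTACCTGGgtggcagtgccaagg
downstream junction: TGTCAGCGAACAGTGgtggcagtgccaagg

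The middle first exon holds the start codon of the annotated protein-coding transcript Fxyd2-201. Its coding sequence of 192 bases is shown with the 19 bases of the middle first exon in capitals, since these are the only coding bases of Fxyd2 in which a read could be counted.
Fxyd2-201 coding sequence: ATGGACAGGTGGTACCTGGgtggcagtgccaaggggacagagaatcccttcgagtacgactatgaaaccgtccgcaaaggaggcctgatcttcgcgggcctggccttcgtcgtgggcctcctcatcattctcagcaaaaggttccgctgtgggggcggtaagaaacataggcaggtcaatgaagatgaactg
Read back from the junction in the frame of the shared exon, the middle first exon has 1 ATG, 19 bases before the junction. The downstream first exon also has 1 ATG in that frame, 37 bases before the junction, although GENCODE lists the matching transcripts as processed transcripts with no coding sequence. The upstream first exon has 0 ATG in that frame between its nearest stop codon, 247 bases before the junction, and the junction. GENCODE joins the upstream exon directly to the shared exon in the processed transcript Fxyd2-210, and to part of the middle exon in the protein-coding transcript Fxyd2-211. Reads counted in the middle exon can therefore come from transcripts that begin at the upstream exon.

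Fxyd4 (mm10 chr6:117933559-117937692, minus strand) has 2 deposited identifiers whose exons differ at a single splice acceptor. The window below is chr6:117935907-117935936 on the minus strand, and the capitals mark the 3 bases that belong to 1 identifier alone.
Fxyd4 splice acceptor: tgcatctcacccagCAGcctgcagtctcac
The bases before the capitals are intron in both identifiers and the bases after them are exon in both, in the 5′ untranslated part of the gene. A read that reached the shared exon on either side was not counted, so a counted Fxyd4 read ended in these 3 bases and ran into the intron. GENCODE also lists transcripts that keep the intron bases shown as exon, the protein-coding transcript Fxyd4-201 among them. The Fxyd4 counts are thus counts of reads that ran into these bases, from unspliced RNA or from such transcripts. Fxyd4 RNA spliced at this acceptor was not measured.

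The 6 libraries held between 40334731 and 41701319 counted reads on the low-NaCl diet and between 40101899 and 46861531 on the high-NaCl diet. Values are CPM, counts per 1000000 counted reads after scaling between libraries by TMM (trimmed mean of M values), given for replicates 1, 2 and 3 in that order. Each log2 fold change is that of low-NaCl over high-NaCl libraries, with the standard error of edgeR's quasi-likelihood fit, and p-values are adjusted by Benjamini-Hochberg over all 10519 genes tested, with a threshold of 0.05. Mitochondrial transcripts took 20.5 to 21.8% of counts in low-NaCl libraries and 21.9 to 29.9% in high-NaCl libraries. Replicate 1 of both diets was read in lane 1, the other low-NaCl libraries in lane 2 and the other high-NaCl libraries in lane 3, so a comparison within a lane exists only as 1 library against 1. Of the marker lists, those of endothelium, immune cells, stroma, podocytes, red blood cells and proximal tubule each summed to under 40 CPM in every library, although some of these markers, such as Pecam1 and Adgre1, had no countable base. The principal cell markers summed to 3125 to 4767 CPM in low-NaCl libraries and 8779 to 10937 CPM in high-NaCl libraries, with 0 of 8 tested markers higher and 3 lower. Gata3, a defining principal cell factor, had 0 reads but was countable over only 0.0933% of its bases, so its level was not measured. The intercalated cell markers summed to 4644 to 8153 CPM in low-NaCl libraries and 3864 to 5067 CPM in high-NaCl libraries, with 6 of 12 higher. Over all genes tested, 1.71% were higher and 1.7% lower. In bulk RNA, fewer cells of a type and less RNA per cell cannot be told apart.

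Of the 7 genes, 4 passed the filter on low counts (Atp1b1, Atp1b3, Fxyd2 and Fxyd4), and 0 of these 4 passed the edgeR test, against 3.41% of all genes tested (1.71% higher and 1.7% lower on the low-NaCl diet). At an unadjusted p under 0.05 the count was 1 of 4, Fxyd4, against 18.3% of all genes. DESeq2 called 1 of 4, Fxyd4 again, against 8.03% of all genes. The median log2 fold change of the 4 genes was 0.16, beside -0.0018 over all genes tested. The diets did not overlap for 1 of the 4, Fxyd4, against 23.9% of all genes. Fxyd4 passed the low-count filter through its high-NaCl libraries, at 34, 43 and 18 reads, and not through its low-NaCl libraries, at 10, 14 and 4. Its place among the tested genes, and so these counts, are not independent of its direction.

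Atp1b1 (ENSMUSG00000026576.12, chr1:164437109-164458355, minus strand), the main beta subunit of kidney epithelia, was by far the more abundant of the 2 beta subunit members. It measured 7850, 9339 and 7515 CPM in low-NaCl libraries, and 5853, 7943 and 6623 CPM in high-NaCl libraries. The diets overlapped, since the second high-NaCl library lay above the first and the third low-NaCl library. The means were 8235 ± 971 CPM on the low-NaCl diet and 6806 ± 1057 CPM on the high-NaCl diet (SD, n = 3 each), a log2 fold change of 0.27 ± 0.19 (edgeR adjusted p = 0.50). Within lane 1 the difference was 0.42 on the log2 scale, with 1 library per diet. Without the 2 libraries whose mitochondrial share was over 25%, the first and the third of the high-NaCl diet, 1 high-NaCl library was left. The log2 fold change was then 0.04.

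Atp1b3 (ENSMUSG00000032412.8, chr9:96332655-96364442, minus strand), a beta subunit found in many tissues, measured 188, 199 and 172 CPM in low-NaCl libraries, and 136, 212 and 186 CPM in high-NaCl libraries. The low-NaCl values lay within the range of the high-NaCl values. The log2 fold change was 0.07 ± 0.17 (edgeR adjusted p = 0.878), and it was -0.10 without the first high-NaCl library. Per kilobase of countable exon, the level of Atp1b1 was 3443 ± 406 CPM on the low-NaCl diet and 2845 ± 442 CPM on the high-NaCl diet. That of Atp1b3 was 129 ± 9.41 CPM per kilobase on the low-NaCl diet and 123 ± 26.6 CPM per kilobase on the high-NaCl diet (SD, n = 3 each). In CPM, Atp1b3 stood at 2.39, 2.13 and 2.29% of Atp1b1 in low-NaCl libraries, and at 2.33, 2.67 and 2.80% in high-NaCl libraries. The mean share was 0.329 percentage points lower on the low-NaCl diet, and the diets overlapped (exact two-sided permutation test over the 6 libraries, p = 0.2, where 3 libraries against 3 cannot go below 0.1).

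**Figure D2:**
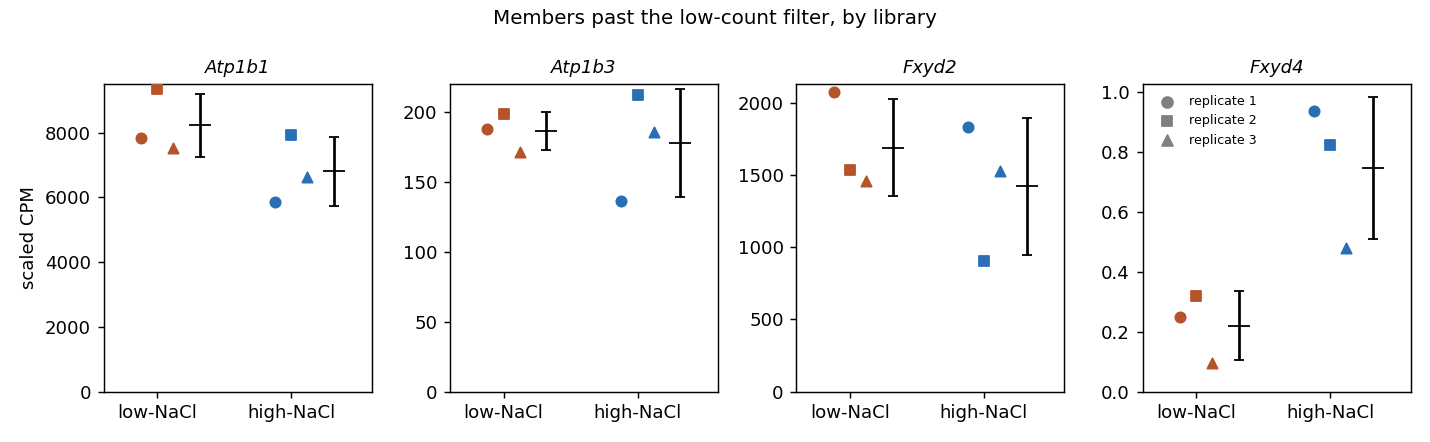
Scaled CPM of the 4 genes past the low-count filter, 1 panel per gene, with low-NaCl libraries at the left of high-NaCl libraries, the marker shape giving the replicate number and bars the mean ± SD (n = 3). Each vertical axis starts at 0 and has its own scale. The diets overlap for Atp1b1, Atp1b3 and Fxyd2, while the Fxyd4 values of 0.0944 to 0.319 CPM on the low-NaCl diet lie below those of 0.479 to 0.934 CPM on the high-NaCl diet.

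Among the FXYD genes, the summed first-exon counts of Fxyd2 (ENSMUSG00000059412.7) gave 2073, 1535 and 1458 CPM in low-NaCl libraries, and 1832, 905 and 1525 CPM in high-NaCl libraries. The diets overlapped, with the second high-NaCl library the lowest of the 6. The log2 fold change of the sum was 0.25 ± 0.26 (edgeR adjusted p = 0.666). It was 0.88 without the libraries over 25% mitochondrial, which leaves 1 high-NaCl library, and 0.0076 without the second high-NaCl library (edgeR adjusted p = 0.985). The sum joins first exons whose fold changes had opposite signs. The 3 first exons were therefore also taken one by one, in a fit of all 12192 identifiers tested, an alternative added after the data were seen.

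The upstream first exon measured 1299, 873 and 784 CPM in low-NaCl libraries, and 742, 319 and 414 CPM in high-NaCl libraries. Every low-NaCl library lay above every high-NaCl library, as was so in one direction or the other for 23.2% of all identifiers tested, although the third low-NaCl library exceeded the first high-NaCl library by little. The log2 fold change was 0.996 ± 0.310, a 1.99-fold higher level on the low-NaCl diet, and did not pass the test over all identifiers (edgeR adjusted p = 0.128). In that fit 2.82% of identifiers passed. Among the alternatives with more than 1 library per diet, it did pass with DESeq2 (adjusted p = 0.0234) and with no filter on low counts. It also passed with the replicate number as a block (edgeR adjusted p = 0.00578) and without the first high-NaCl library (0.0296). With no filter, the upstream, middle and downstream exons had nearly the same standard error, 0.181, 0.176 and 0.174. In the main fit these were 0.310, 0.234 and 0.248. The no-filter pass therefore says little about the spread between the libraries of the upstream exon. Leaving out both libraries of high mitochondrial share leaves 1 high-NaCl library, and the log2 fold change was then 1.61. Within lane 1 the difference was 0.81 on the log2 scale.

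The middle first exon, which holds the annotated start codon, measured 530, 430 and 483 CPM in low-NaCl libraries, and 756, 395 and 704 CPM in high-NaCl libraries. The downstream first exon measured 244, 233 and 191 CPM in low-NaCl libraries, and 334, 191 and 406 CPM in high-NaCl libraries. For both exons the diets overlapped because the second high-NaCl library was low, and the other high-NaCl libraries lay above all low-NaCl libraries. The log2 fold change was -0.37 ± 0.23 for the middle exon (edgeR adjusted p = 0.466) and -0.49 ± 0.25 for the downstream exon (edgeR adjusted p = 0.356). Without the second high-NaCl library the downstream exon passed, at a log2 fold change of -0.74 (edgeR adjusted p = 0.0329). Without the first and the third high-NaCl library, which leaves 1 high-NaCl library, both turned to the other direction, at 0.27 and 0.21.

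The share of each first exon in the Fxyd2 reads does not depend on the scaling between libraries. The upstream exon held 62.7, 56.9 and 53.8% of first-exon reads in low-NaCl libraries, and 40.5, 35.3 and 27.1% in high-NaCl libraries. The diets stood apart, with 57.8 ± 4.51% on the low-NaCl diet and 34.3 ± 6.73% on the high-NaCl diet (SD, n = 3 each), a difference of 23.5 percentage points. The middle exon held 25.6, 28.0 and 33.1% in low-NaCl libraries, and 41.3, 43.6 and 46.2% in high-NaCl libraries. The downstream exon held 11.8, 15.2 and 13.1% in low-NaCl libraries, and 18.2, 21.1 and 26.7% in high-NaCl libraries. The diets did not overlap for any of the 3 shares, which add up to the whole and so are not independent of each other. How often such shares stand apart among all genes with several identifiers was not counted, so how unusual this is cannot be said. For each share the exact two-sided permutation test over libraries gave p = 0.1, the smallest value that 3 libraries against 3 can give. These shares rest on 47292 to 83419 reads per library, and the exact binomial 95% interval of each share reached at most 0.448 percentage points to either side, for counting error only. Leaving out any 1 library kept the difference of the upstream share between 19.9 and 26.6 points. The difference was 22.5 points without both libraries of high mitochondrial share, which leaves 1 high-NaCl library.

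A test across all 1340 genes with several tested identifiers asked whether their relative use differed between diets. It gave Fxyd2 a p-value of 0.00116 and an adjusted p of 0.0971 (edgeR diffSpliceDGE), and so did not pass. Fxyd2 ranked at place 16, and 3 genes passed, 0.224% of those tested, while 9.7% had an unadjusted p under 0.05. Fxyd2 passed with total-count scaling (adjusted p = 0.0410), with the replicate block (0.0134) and without the second high-NaCl library (0.0314). Over the fits that left out 1 library the adjusted p ran from 0.0314 to 0.551.

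**Figure D3:**
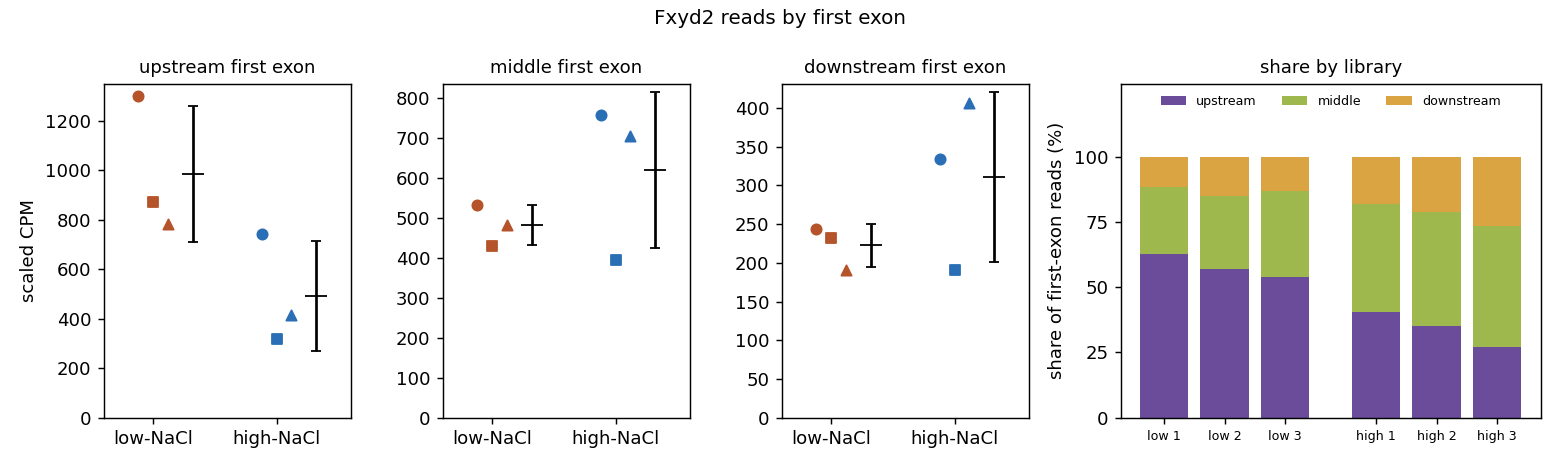
The first 3 panels give scaled CPM in the upstream, middle and downstream first exon of Fxyd2, low-NaCl libraries left of high-NaCl libraries, with marker shapes for replicates 1 (circle), 2 (square) and 3 (triangle) and bars for the mean ± SD (n = 3). The last panel stacks the share of each exon in the first-exon reads of every library, where the upstream exon holds 53.8 to 62.7% on the low-NaCl diet and 27.1 to 40.5% on the high-NaCl diet.

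Per kilobase of countable exon the order of the first exons differed between the diets. On the low-NaCl diet the upstream exon measured 3339 ± 932, the middle exon 2950 ± 309 and the downstream exon 2473 ± 307 CPM per kilobase, and the ranges of neighbours in this order overlapped. On the high-NaCl diet the upstream exon was lowest at 1667 ± 753, against 3794 ± 1199 for the middle and 3449 ± 1218 CPM per kilobase for the downstream exon (SD, n = 3 each), and there too the ranges of neighbours overlapped. Compared within libraries, the upstream exon was the lowest of the 3 in every high-NaCl library. It was the highest in the first and second low-NaCl libraries, and lay below the middle exon in the third. Reads that cross the junction were not counted, which takes a larger part of the reads of a short exon, so levels of the 90-base exon are understated relative to the 295-base exon in both diets.

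Fxyd2 is known from the thick ascending limb and other tubule segments besides the collecting duct, and 1 marker of that limb, Slc12a1, passed higher on the low-NaCl diet. The 6 limb markers summed to 520 to 616 CPM in low-NaCl libraries and 344 to 444 CPM in high-NaCl libraries. Most of that sum was Egf, at 380 ± 61.8 CPM on the low-NaCl diet and 266 ± 19.2 CPM on the high-NaCl diet. Egf did not pass (edgeR adjusted p = 0.117). Of 5 tested, 1 was higher and 0 lower, against 1.71% higher and 1.7% lower over all genes tested. Cldn10 had no countable base and so was not measured. Slc12a1, the limb's sodium-potassium-chloride cotransporter, measured 64.3, 57.6 and 63.0 CPM in low-NaCl libraries, and 32.5, 26.9 and 38.3 CPM in high-NaCl libraries (log2 fold change 0.92 ± 0.15, edgeR adjusted p = 0.0158, 24.5% countable). It did not pass without the second or the third low-NaCl library (edgeR adjusted p = 0.0522 and 0.0529). Over its identifiers with annotated introns alone its log2 fold change was -0.10 (edgeR adjusted p = 0.881), so the higher level lay in an identifier that was matched to the gene by overlap. Umod, the limb's main secreted protein, measured 23.3 ± 1.56 CPM on the low-NaCl diet and 18.5 ± 3.41 CPM on the high-NaCl diet but was countable over 2.27% of its exonic bases. The distal convoluted tubule markers summed to 48.2 to 78.9 CPM in low-NaCl libraries and 171 to 260 CPM in high-NaCl libraries. Most of that sum was Emx1, which was lower at 62.4 ± 15.4 CPM on the low-NaCl diet and 203 ± 48.0 CPM on the high-NaCl diet (SD, n = 3 each, edgeR adjusted p = 0.0069). Slc12a3, the defining cotransporter of that segment and the other marker tested, measured 3.13 ± 0.581 CPM on the low-NaCl diet and 2.24 ± 0.663 CPM on the high-NaCl diet and did not pass (edgeR adjusted p = 0.386). Of 5 connecting tubule markers 3 were tested and 2 were lower, against 1.7% of all genes. These were Calb1 (edgeR adjusted p = 0.0066) and Trpv5 (0.0419), while Klk1 did not pass (0.716). The part of these other tubule cells in the Fxyd2 difference was not tested.

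**Figure D4:**
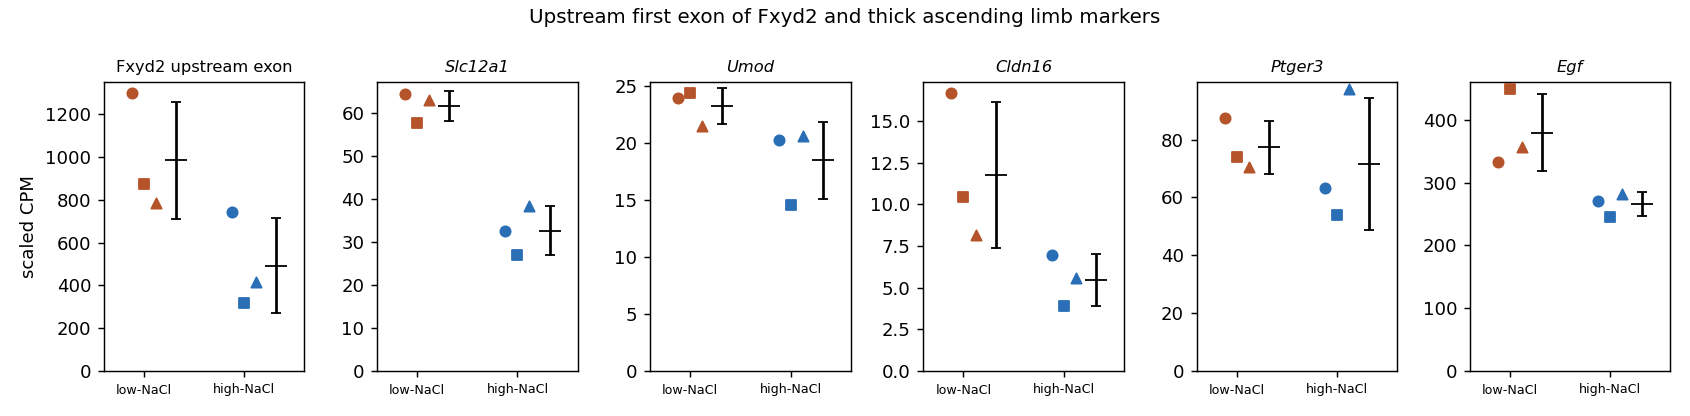
Scaled CPM of the upstream first exon of Fxyd2 and of the 5 detected thick ascending limb markers, low-NaCl libraries left of high-NaCl libraries, with circle, square and triangle for replicates 1, 2 and 3 and bars for the mean ± SD (n = 3). The diets do not overlap for the upstream exon, Slc12a1, Umod, Cldn16 and Egf, and overlap for Ptger3. Of all genes tested, 23.9% did not overlap, and of these markers only Slc12a1 passed the edgeR test.

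Fxyd4 (ENSMUSG00000004988.9) gave 10, 14 and 4 reads in low-NaCl libraries, and 34, 43 and 18 reads in high-NaCl libraries, at the 3 countable bases shown above. In CPM these were 0.248, 0.319 and 0.0944 on the low-NaCl diet, and 0.934, 0.823 and 0.479 on the high-NaCl diet. All low-NaCl libraries lay below all high-NaCl libraries. Because the gene passed the low-count filter only through its high-NaCl libraries, this direction is not independent of the filter. The log2 fold change was -1.74 ± 0.51, a level 0.299 times that on the high-NaCl diet, and did not pass (edgeR adjusted p = 0.0982). It passed with DESeq2 (adjusted p = 0.0401) and with the replicate block (edgeR adjusted p = 0.0435). Within lane 1 the difference was -1.91. Fxyd4 is itself on the principal cell marker list. The other members of that list were lower too where they passed, with Aqp2, the vasopressin-regulated water channel, at 2870 ± 744 CPM on the low-NaCl diet and 6962 ± 1171 CPM on the high-NaCl diet (log2 fold change -1.28 ± 0.23, edgeR adjusted p = 0.0224). Aqp2 did not pass without the second or the third low-NaCl library (adjusted p = 0.0941 and 0.0809), nor without the first or the third high-NaCl library (0.0516 and 0.0807) or without both of these (0.123). The part of principal cells in the Fxyd4 difference was not tested.

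Fxyd1, Fxyd3 and Fxyd5 were at or near 0 in the bases where they could be counted. Fxyd1, or phospholemman, the regulator of heart and skeletal muscle pumps, had 0 reads in all 6 libraries over 178 countable bases, of which 61 are coding. A count of 0 allows a level of up to 3 reads, which is 0.0683 to 0.0745 CPM in low-NaCl libraries and 0.0574 to 0.0824 CPM in high-NaCl libraries, for counting error only. Fxyd3, known from stomach, colon and several carcinomas, had 0, 2 and 1 reads in low-NaCl libraries, and 0 in every high-NaCl library, over 226 countable bases with no coding base among them. Fxyd5, or dysadherin, which also affects cell adhesion, had 0, 4 and 0 reads in low-NaCl libraries, and 1, 0 and 1 in high-NaCl libraries. Its 2554 countable bases hold 68 of its 648 coding bases and lie mostly in untranslated or intron-keeping exons. For these 3 genes a diet difference was not detectable at this depth, and the exons that could not be counted were not measured.

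**Figure D5:**
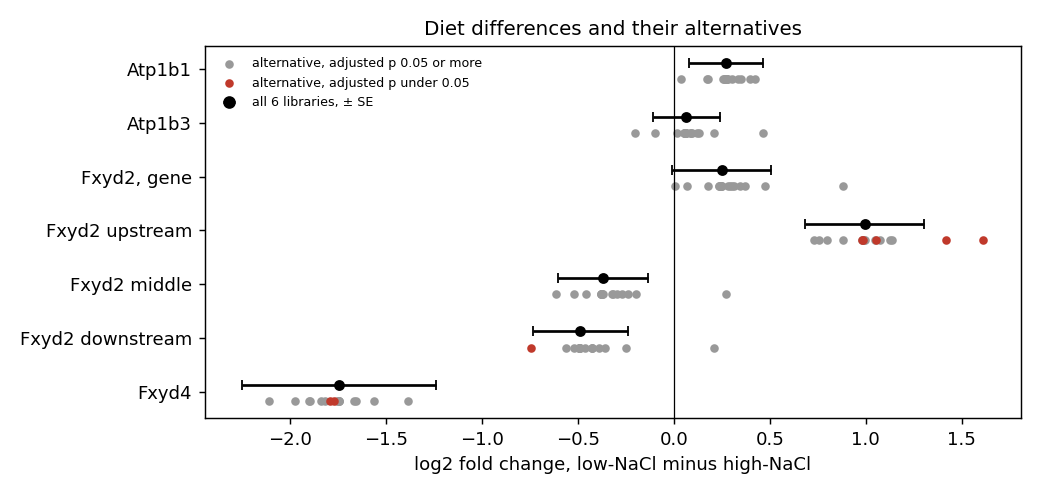
Log2 fold changes of low-NaCl over high-NaCl libraries, with black points ± SE for the fit of all 6 libraries and smaller points below for each alternative, red where the adjusted p was under 0.05 and grey otherwise. Points of Atp1b3 and of the middle and downstream first exons lie on both sides of 0, while those of Atp1b1, Fxyd4 and the upstream first exon keep 1 side. The alternatives include the fit without the libraries over 25% mitochondrial, which leaves 1 high-NaCl library. The color of its points, such as 1.61 for the upstream exon, carries no weight. Only in that fit do the middle and downstream exons lie above 0, at 0.27 and 0.21.

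The other beta and FXYD genes of mouse were listed apart from the members. Of these 4, Atp1b2, the beta subunit typical of glia, was the only one tested and measured 33.5 ± 7.55 CPM on the low-NaCl diet and 30.5 ± 7.74 CPM on the high-NaCl diet (SD, n = 3 each). Its log2 fold change was 0.14 ± 0.21 (edgeR adjusted p = 0.790), and all of its exonic bases were countable. Per countable kilobase its level was 11.3 ± 2.55 CPM on the low-NaCl diet and 10.3 ± 2.62 CPM on the high-NaCl diet, below Atp1b3. Atp1b4, Fxyd6 and Fxyd7 had 0 reads, but under 1.4% of their exonic bases could be counted.

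Partners of the pump were described by 16 genes of its anchors, kinases and chaperones. Of these, 9 were tested, 2 higher and 0 lower, against 1.71% higher and 1.7% lower over all genes tested. Sik1, a kinase that has been tied to pump activity when cell sodium rises, measured 45.3, 59.4 and 51.0 CPM in low-NaCl libraries, and 35.0, 31.3 and 25.3 CPM in high-NaCl libraries. The diets did not overlap and Sik1 passed, at a log2 fold change of 0.77 ± 0.16 (edgeR adjusted p = 0.0362). It passed without the first low-NaCl or the second high-NaCl library and failed without each of the other 4, at adjusted p from 0.0546 to 0.163. It also failed with total-count scaling (edgeR adjusted p = 0.0771) and without the libraries over 25% mitochondrial (0.154). Sgk1, the aldosterone-induced kinase that raises channel and pump number at the membrane, measured 2.61, 9.68 and 7.95 CPM in low-NaCl libraries, and 0.192, 1.51 and 0.160 CPM in high-NaCl libraries. It passed too, at 3.35 ± 0.75 (edgeR adjusted p = 0.0419), with 38.2% of its bases countable, and failed without each of the same 4 libraries, at adjusted p from 0.0965 to 0.227. It also failed with total-count scaling (edgeR adjusted p = 0.0866), no filter (0.298), limma-voom (0.0590) and without the libraries over 25% mitochondrial (0.427). Its log2 fold change was 2.15 without those libraries and 5.24 without the second high-NaCl library. Dnajc3, an ER co-chaperone, and Ank3, an ankyrin of the membrane skeleton, had separate diets without passing (log2 fold change 0.60 ± 0.16 and 0.56 ± 0.22, edgeR adjusted p = 0.0801 and 0.221). The diets were separate for 23.9% of all genes tested.

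On the urine side, the epithelial sodium channel supplies the sodium that the pump moves out. Of its 3 subunit genes 1 passed, Scnn1g, which was lower at 271, 258 and 379 CPM in low-NaCl libraries, against 711, 862 and 621 CPM in high-NaCl libraries (log2 fold change -1.27 ± 0.20, edgeR adjusted p = 0.0128). Without the second low-NaCl library it did not pass (edgeR adjusted p = 0.0693). Of all genes tested, 3.41% passed in either direction. Scnn1a, at 1900 ± 286 CPM on the low-NaCl diet and 1288 ± 241 CPM on the high-NaCl diet, did not pass (edgeR adjusted p = 0.153). Scnn1b was countable over 5.97% of its bases and did not pass (edgeR adjusted p = 0.135). The basolateral potassium channel gene Kcnj10, which lets potassium taken up by the pump leave again, measured 389 ± 39.2 CPM on the low-NaCl diet and 355 ± 46.8 CPM on the high-NaCl diet (edgeR adjusted p = 0.707). Its partner Kcnj16, countable over 7.5% of its bases, measured 0.972 ± 0.141 CPM on the low-NaCl diet and 0.719 ± 0.212 CPM on the high-NaCl diet (edgeR adjusted p = 0.543), and Kcnj15 had 0 reads over 3.09% of its bases.

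The genes whose log2 CPM ran most like that of each tested member were sought over the 6 libraries among 5476 well-counted genes, as a description. For Atp1b1 they were Foxo3, a forkhead transcription factor (Pearson r = 0.991), and Ppm1h, a protein phosphatase (r = 0.990). For Atp1b3 they were Nars2, the mitochondrial asparaginyl-tRNA synthetase (r = 0.988), and Prpf38a, a splicing factor (r = 0.986). For Fxyd2 they were Acss2, an acetyl-CoA synthetase (r = 0.995), and Fth1, the ferritin heavy chain (r = 0.993). For Fxyd4 they were Gm7694 (r = 0.995) and Pot1a, a telomere protein (r = 0.994). All these values share the same 6 libraries and their scaling, and 6 points leave many genes with correlations this high.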

How the data were processed

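Members and lists were chosen with earlier results of these data known. The values are raw read counts that the authors deposited, 1 table per library, made with featureCounts 1.5.0-p3 over exons of UCSC identifiers (mm10), per the file headers. No strand or overlap option is given there, so by the program's defaults strand was ignored and reads on several identifiers were dropped. FastQC, Subread and edgeR are named in the submitters' processing notes; the aligner is not given in the sources used here. Antisense or overlapping genes cannot be told apart.

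Identifiers were matched to GENCODE M21 by identical introns (41303 identifiers, 72.1% of counts) or at least 50% exonic overlap (11080, 22.2%) and summed per gene; 6738 unmatched identifiers (5.65%) entered library sizes only. Alpha subunit genes and 1 partner gene are not reported here, and the partner counts leave it out.

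Diets were compared with edgeR 4.0.16 in R 4.3.3 (filterByExpr, TMM, robust glmQLFit and glmQLFTest, no covariates), and first-exon use with diffSpliceDGE. Named genes were the 7 members, the passing and up to 4 other genes by smallest p of 4 lists, and the 2 genes most correlated with each tested member; marker genes were named besides, after their values were seen. Libraries held 40101899 to 46861531 counts, with a biological coefficient of variation of 21.6%. Replicates differed beyond sampling noise. Alternatives were scaling by median ratio or total counts, filtering no genes or those under 1 CPM in 3 libraries, DESeq2 1.42.0, limma-voom (limma 3.58.1), no robust estimation, replicate block, lane term, stricter matching and leaving out libraries. Leaving out the libraries over 25% mitochondrial left 1 high-NaCl library, so those fits had no spread on that diet. Procedures were tested on simulated data. Python 3.11.15 was used for matching.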

Additional observations from a re-analysis of the deposited data

How the results depend on the processing

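No member passed in the fit of all 6 libraries, and 1 member, Fxyd4, passed lower with DESeq2 (log2 fold change -1.77) and with the replicate block (-1.79). Fxyd4 had entered both of these fits through its high-NaCl libraries alone. The upstream first exon of Fxyd2 passed with no filter (log2 fold change 0.99), DESeq2 (0.98) and the replicate block (1.05), where the no-filter standard error was nearly that of the other first exons. Its log2 fold change was 1.61 without the libraries over 25% mitochondrial, which leaves 1 high-NaCl library. The direction held in all 16 alternatives, and without 1 library each the range was 0.73 to 1.42. The use of Fxyd2 first exons passed with total-count scaling (adjusted p = 0.0410) and the replicate block (0.0134), and ran from 0.0314 to 0.551 without 1 library each. The log2 fold change of the middle exon turned to 0.27 and that of the downstream exon to 0.21 without the libraries over 25% mitochondrial; without 1 library each they ran from -0.61 to -0.20 and from -0.74 to -0.25. Atp1b3 turned to -0.20 without the libraries over 25% mitochondrial and ran from -0.10 to 0.21 without 1 library each. The sum of Fxyd2 was 0.25, against -0.37 and -0.49 for the middle and downstream first exon alone, which follows from summing exons of opposite direction. Atp1b1 kept its direction in all 19 alternatives. Of the other genes named, Atp1b2 turned to -0.50 with a lane term and ran from -0.059 to 0.35 without 1 library each, Kcnj10 turned to -0.084 without the libraries over 25% mitochondrial, and Slc12a1 to -0.10 with identical introns only. With a lane term none of Sik1, Sgk1, Scnn1g, Slc12a1, Emx1 and Aqp2 passed. Apart from that sum, the cause of these changes was not tested.

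Counts over all genes moved more. The 180 higher and 179 lower genes became 80 and 55 with total-count scaling, 402 and 443 with DESeq2, 457 and 437 with the replicate block, 1 and 2 with a lane term, and 30 and 91 without the libraries over 25% mitochondrial, and no filter gave 274 lower. Without 1 library each the counts ran from 32 to 291 higher and from 36 to 251 lower. With total-count scaling the median log2 fold change of all genes was 0.09. Same-numbered libraries of the 2 diets deviated together with correlations of 0.193, 0.272 and -0.074 for replicates 1, 2 and 3. Libraries of different numbers had -0.285 to 0.103, so replicates 1 and 2 lay above all of these and replicate 3 did not. These values do not settle whether the numbers are pairs. The main fit took none, and the block is given as an alternative. Fxyd4 could not be tested with identical introns only or with the 1 CPM filter. Fxyd1, Fxyd3, Fxyd4 and Fxyd5 rest on few or no reads, and which part of that is depth and which is uncounted exons was not tested.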
